A study of Mus musculus with 17 samples.

Results

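Scar-associated and lipid-handling macrophage genes were followed in mouse liver RNA on 17 Illumina bead arrays. The set was chosen by gene symbol and holds 10 genes: Gpnmb, Trem2, Cd63, Cd9, Lpl, Cd68, Fabp5, Tyrobp, Ms4a7 and Lyz1. Of these, 9 had at least 1 probe under their symbol among the 11986 genes tested, and Cd68 was not analysed here. All 18 probes of the 9 genes were read, 15 of them passed the filter on dim signal, and each gene is represented by its brightest probe.

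The arrays fall into 4 groups. The healthy group (n = 4) had no treatment and the entry "No" in the label field tk. The CCl4 group (n = 6) was treated with carbon tetrachloride (CCl4), which is toxic to hepatocytes and leaves the liver fibrotic, and is marked tk "Neg". The FSP1 ablated group (n = 4) and the aSMA ablated group (n = 3) were CCl4-treated as well, are marked tk "FSP1 +" and "aSMA +", and are called ablated in the design text. FSP1 is the protein of S100a4 and aSMA that of Acta2. The CCl4 treatment is therefore shared by every group other than the healthy one. Strain, age, sex, treatment time and the construct behind tk are not given in the labels, nor do they say whether each array is a separate animal, so p-values measure only the spread between these arrays.

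In scarred liver, macrophages recruited from blood monocytes settle along the fibrous bands and take on a state marked by Trem2, Cd9 and Gpnmb, known as scar-associated or lipid-associated. TREM2 is a surface receptor for lipids and cell debris that signals through the adaptor TYROBP. Cells in this state take up and break down lipid in lysosomes, which is where CD63, CD68 and lysozyme come in, while LPL and FABP5 release and carry fatty acids. None of these genes is expressed by macrophages alone: hepatocytes, stellate cells and other cells express several of them.

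Values below are normalized log2 intensities and differences are log2 fold changes, so that 1 unit is a doubling. A value of one gene is compared only with the same gene's values on other arrays. In RNA of whole liver, fewer cells of a type and less of a transcript per cell cannot be told apart. Each array had 13304 to 14541 of its 25697 probes above background, and precision is limited by how few arrays there are. As deposited, the healthy arrays had upper quartiles of 63.7 to 65.7 and the other arrays 165.4 to 178.8, a gap that the normalization removed. The 10 hepatocyte markers averaged 12.11 to 12.21 in healthy samples and 11.65 to 12.22 in CCl4 samples, as a check of the tissue. Eif2s3y, a Y-linked gene, read 9.24 to 9.53 on CCl4 arrays 5 and 6 and in all healthy samples, and near background on the rest. Xist, from the inactive X chromosome, was 7.25 to 9.41 on the ablated arrays and on CCl4 arrays 1 to 3, and 5.69 to 5.88 elsewhere. S100a4, the FSP1 gene, lay near background in all 4 groups, at means of 5.90 to 6.03, and so does not check the FSP1 label. Acta2 averaged 7.67 in healthy, 10.39 in CCl4, 7.44 in FSP1 ablated and 8.11 in aSMA ablated liver, and its fall in the aSMA ablated group did not pass the test (adjusted p = 0.0987, limma).

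The promoters of Gpnmb, Trem2 and Ms4a7 are shown because each holds a match to TGANTCA, the AP-1 motif searched with any central base. That base was C in Gpnmb, A in Trem2 and T in Ms4a7. Cd63 and Cd9, the tetraspanins of the set, are shown beside them and hold none. The sequences are those of RefSeq for GRCm38.p6, from 250 bases before to 50 after the start of the gene, and 7 of the 10 genes matched the table. They are written 5′ to 3′ on the strand of the gene, and capitals mark TGANTCA.
Gpnmb (chr6:49036268-49036567, plus strand): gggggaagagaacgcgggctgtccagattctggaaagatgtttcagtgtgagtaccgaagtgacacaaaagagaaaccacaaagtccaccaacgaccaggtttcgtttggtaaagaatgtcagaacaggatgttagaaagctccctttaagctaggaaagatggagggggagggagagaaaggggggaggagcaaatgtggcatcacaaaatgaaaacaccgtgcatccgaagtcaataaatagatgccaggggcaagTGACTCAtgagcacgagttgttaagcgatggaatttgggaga
Trem2 (chr17:48346151-48346450, plus strand): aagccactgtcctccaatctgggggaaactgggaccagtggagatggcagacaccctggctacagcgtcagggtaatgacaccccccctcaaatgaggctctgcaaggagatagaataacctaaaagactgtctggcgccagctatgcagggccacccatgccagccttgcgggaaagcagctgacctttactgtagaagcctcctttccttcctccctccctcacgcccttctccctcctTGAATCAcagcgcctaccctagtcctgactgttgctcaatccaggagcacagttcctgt
Ms4a7 (chr19:11334646-11334945, minus strand): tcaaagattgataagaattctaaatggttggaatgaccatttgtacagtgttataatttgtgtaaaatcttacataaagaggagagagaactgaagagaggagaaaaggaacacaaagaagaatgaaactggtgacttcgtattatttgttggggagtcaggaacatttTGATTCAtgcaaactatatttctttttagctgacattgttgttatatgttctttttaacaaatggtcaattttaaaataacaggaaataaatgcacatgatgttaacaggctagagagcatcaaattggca
Cd63 (chr10:128909095-128909394, plus strand): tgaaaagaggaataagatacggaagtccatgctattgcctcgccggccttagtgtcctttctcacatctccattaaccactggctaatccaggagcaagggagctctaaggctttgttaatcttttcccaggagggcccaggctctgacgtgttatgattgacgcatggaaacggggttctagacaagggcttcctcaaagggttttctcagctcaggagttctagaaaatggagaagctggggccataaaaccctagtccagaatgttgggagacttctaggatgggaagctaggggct
Cd9 (chr6:125494711-125495010, minus strand): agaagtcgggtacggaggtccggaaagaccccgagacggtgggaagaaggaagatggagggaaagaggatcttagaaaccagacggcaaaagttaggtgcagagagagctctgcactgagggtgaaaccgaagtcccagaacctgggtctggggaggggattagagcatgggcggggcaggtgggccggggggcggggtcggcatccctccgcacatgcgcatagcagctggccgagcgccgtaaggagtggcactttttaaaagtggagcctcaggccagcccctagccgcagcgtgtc
Both strands were searched for TGANTCA (AP-1), CACGTG (an E-box that also serves lysosomal genes) and GAGGAAGT (a core bound by PU.1, a factor of myeloid cells). Of all 32851 promoters in the table, 7.81% hold TGANTCA, 7.15% hold CACGTG and 3.2% hold GAGGAAGT. The first base of TGANTCA lies at position 9 after the start in Gpnmb and at positions -9 and -81 before it in Trem2 and Ms4a7, and Cd68 holds a pair of matches, at -149 and -24. Ms4a7 has a second promoter in the table, which holds no match, and neither CACGTG nor GAGGAAGT was found in the window of any matched gene. A match of letters is a description of the sequence and not a binding site.

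CCl4 treatment was compared with no treatment to see which macrophage genes differ in fibrotic liver. Of the 9 measured genes, 8 rose, none fell and Fabp5 did not pass the test. The rise was largest for Gpnmb, Cd63 and Lpl, at 4.20, 3.94 and 3.69, and smallest for Tyrobp at 1.14. Over all 11986 genes, 17.6% rose in this comparison and 18.8% fell. The median difference was 1.98 over the 9 genes and -0.03 over all genes. The arrays of both groups did not overlap for 8 of the 9 genes, all of them higher in CCl4 liver, against 12.1% of all genes, and Gpnmb was the exception.

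**Figure D1:**
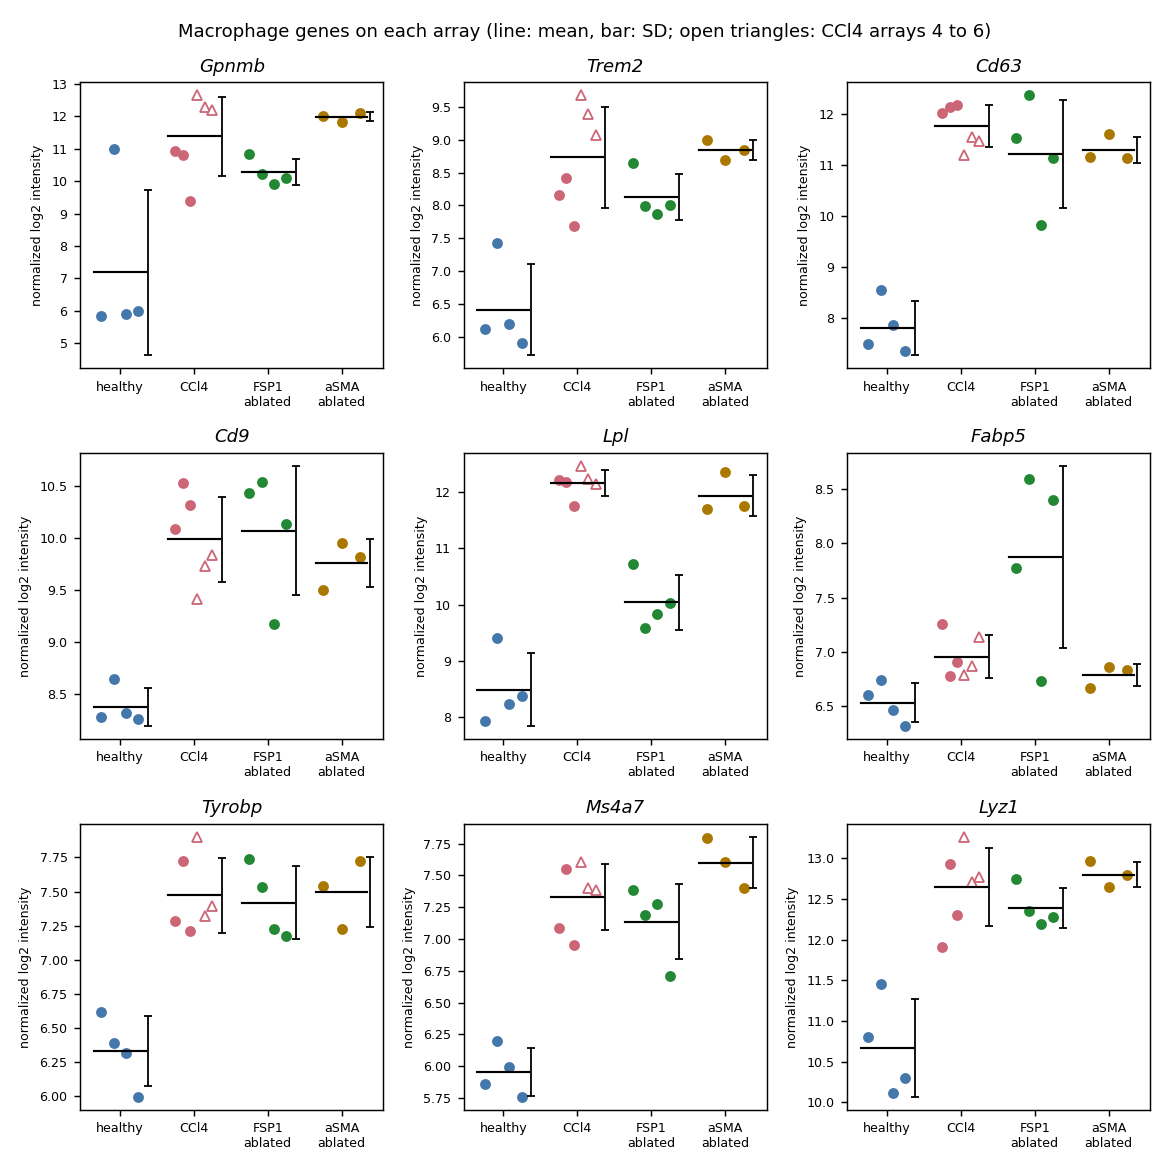
Normalized log2 intensity (y axis) of the 9 measured genes on every array, by group (x axis). Points are arrays, open triangles are CCl4 arrays 4 to 6, lines are group means and bars the SD. In Gpnmb, healthy array 2 at 11.00 stands level with the CCl4 arrays. In Lpl, the FSP1 ablated arrays at 9.58 to 10.73 lie below every CCl4 array.

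Gpnmb encodes a transmembrane glycoprotein of late endosomes and lysosomes. On healthy arrays 1 to 4 it read 5.82, 11.00, 5.90 and 6.0, and on the CCl4 arrays 10.93, 10.82, 9.39, 12.65, 12.30 and 12.20. Healthy array 2 thus lay above 3 of the 6 CCl4 arrays, while the other healthy arrays lay more than 3 units below all of them. The difference was 4.20 (SE 0.86, adjusted p = 0.00161, limma) and 5.47 without healthy array 2 (SE 0.53, adjusted p = 8.94e-06, limma). Since healthy arrays 1, 3 and 4 lie near background for Gpnmb, and array 1 not above it, the size of the difference depends on the background correction: it was 5.09 with an offset of 16 and 5.67 with no correction, against 4.20. The 3 other Gpnmb probes were dim, and their means differed by 0.78, 0.30 and 1.0 in the same direction.

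Trem2 encodes the lipid-sensing receptor. It read 6.12, 7.43, 6.19 and 5.90 in healthy liver and 8.15, 8.42, 7.68, 9.68, 9.39 and 9.07 in CCl4 liver. Every CCl4 array was higher than every healthy array, and healthy array 2 was again the highest of its group. Trem2 rose by 2.32 (SE 0.36, adjusted p = 0.000192, limma), and by 2.66 without healthy array 2. Tyrobp, its adaptor, read 6.62, 6.39, 6.32 and 5.99 in healthy liver against 7.21 to 7.90 in CCl4 liver (median 7.36). It rose by 1.14 (SE 0.16, adjusted p = 8.73e-05, limma).

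Cd63 and Cd9 encode tetraspanins, membrane proteins that organise other proteins at the cell surface, in endosomes and in released vesicles. Cd63 read 7.48, 8.54, 7.85 and 7.36 in healthy liver and 12.02, 12.14, 12.17, 11.19, 11.54 and 11.46 in CCl4 liver. The lowest CCl4 array was more than 2 units above the highest healthy array, and the difference was 3.94 (SE 0.38, adjusted p = 2.34e-06, limma). Its 2 other probes differed by 2.51 and 2.61, less than the brightest one. Cd9 read 8.28, 8.64, 8.31 and 8.26 in healthy and 10.09, 10.53, 10.32, 9.41, 9.73 and 9.84 in CCl4 liver. It rose by 1.61 (SE 0.25, adjusted p = 0.000161, limma), with no overlap.

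Lpl encodes lipoprotein lipase, which releases fatty acids from circulating triglyceride. It read 7.92, 9.41, 8.23 and 8.36 in healthy liver and 12.23, 12.18, 11.76, 12.47, 12.23 and 12.14 in CCl4 liver. The 6 CCl4 arrays spanned less than 1 unit and lay above every healthy array. The rise was 3.69 (SE 0.26, adjusted p = 1.67e-07, limma). Fabp5, a cytosolic carrier of fatty acids, read 6.60, 6.73, 6.46 and 6.31 in healthy and 7.26, 6.78, 6.90, 6.78, 6.87 and 7.14 in CCl4 liver. Although the groups did not overlap, its difference of 0.43 (95% interval -0.12 to 0.98) did not pass (adjusted p = 0.212, limma). Without rescaling of the deposited values, which shifted the median over all genes by 0.62, Fabp5 differed by 1.05 and passed (adjusted p = 0.00305, limma), and it passed too after median centring of the arrays, where all genes shifted by 0.44.

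Ms4a7, a four-span membrane protein of macrophages, read 5.86, 6.20, 6.0 and 5.76 in healthy liver and 7.08, 7.55, 6.95, 7.61, 7.40 and 7.38 in CCl4 liver. It was above background on 2 of the 4 healthy arrays and on all CCl4 arrays. The difference was 1.38 (SE 0.15, adjusted p = 8.65e-06, limma), and a second probe near background differed by 0.02. Lyz1 encodes a lysozyme, and read 10.80, 11.45, 10.11 and 10.30 against 11.91, 12.93, 12.30, 13.26, 12.71 and 12.78. It rose by 1.98 (SE 0.26, adjusted p = 4.48e-05, limma). Lyz1 has a near-identical copy, Lyz2, whose own probe rose by 2.14, and the other 2 Lyz1 probes stayed at background on all 17 arrays. Which of both genes gave the Lyz1 signal is uncertain.

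**Figure D2:**
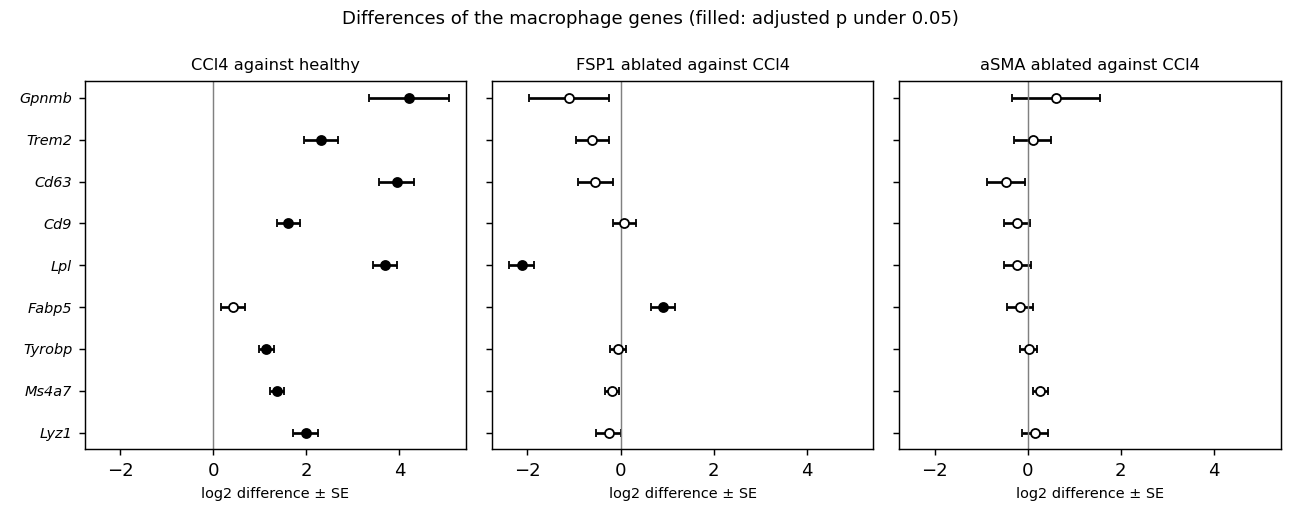
Log2 differences (x axis) of the 9 measured genes (y axis) with bars of 1 SE, in 3 comparisons; filled points passed at an adjusted p under 0.05. In CCl4 against healthy liver 8 genes rose; after FSP1 ablation Lpl fell by 2.13 and Fabp5 rose by 0.92; in the aSMA ablated group no gene passed.

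Sex-linked signal differed between the groups of this comparison, since all 4 healthy arrays but only 2 of the 6 CCl4 arrays were high for Y-linked Eif2s3y. With that signal as a block, the CCl4 level in this comparison is set by CCl4 arrays 5 and 6 alone. The same 8 genes passed in that fit, where 20.2% of all genes were called in either direction, against 36.4% without the block. Gpnmb differed by 5.07 (adjusted p = 0.00644, limma), Trem2 by 2.82 (adjusted p = 0.000785, limma) and Lpl by 3.70 (adjusted p = 1.57e-05, limma). CCl4 arrays 5 and 6, both Y-positive, read 12.30 and 12.20 for Gpnmb and 12.23 and 12.14 for Lpl. The healthy arrays ranged from 5.82 to 11.00 for Gpnmb and from 7.92 to 9.41 for Lpl. Both CCl4 arrays are among arrays 4 to 6, which averaged 12.38 for Gpnmb against 10.38 on arrays 1 to 3. The part of sex-linked signal in the difference of all 6 CCl4 arrays was not tested.

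Healthy array 2 stood apart from the other healthy arrays in some of these genes. All 9 were higher on it than on the mean of the other 3, and Gpnmb, with a gap of 5.10, ranked first among all 11986 genes. Trem2 was higher by 1.36 (rank 11), Lpl by 1.24 (rank 13), Lyz1 by 1.05 (rank 27) and Cd63 by 0.98 (rank 36). Cd9, Ms4a7, Fabp5 and Tyrobp were higher by only 0.36, 0.33, 0.28 and 0.08. A gap of over 1 was found for 4 of the 9 genes and for 33 of the 11986.

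**Figure D3:**
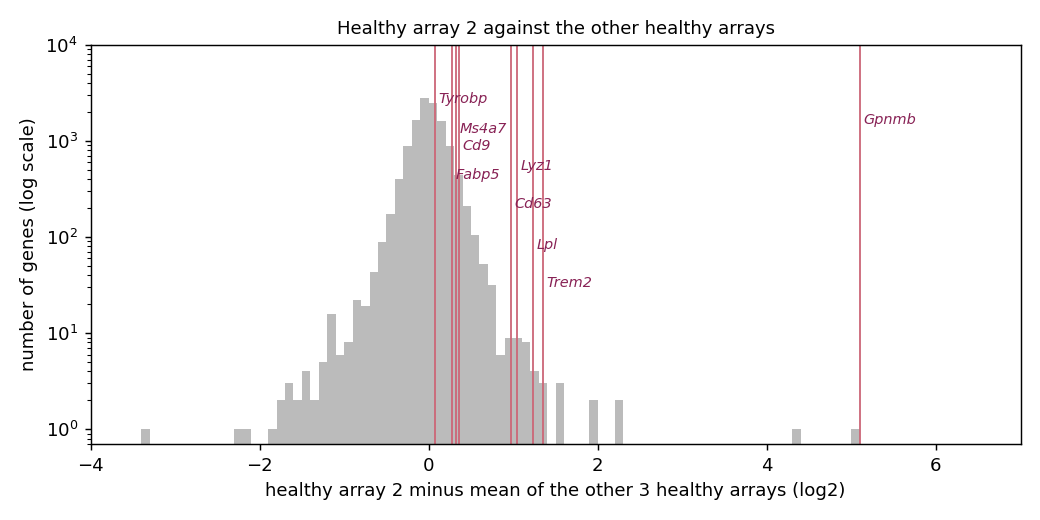
Number of genes (y axis, log scale) by the log2 gap between healthy array 2 and the mean of the other 3 healthy arrays (x axis, bins of 0.1). Red lines mark the 9 measured macrophage genes, of which Gpnmb at 5.10 lies farthest to the right of all 11986 genes.

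Among the other genes high on healthy array 2 were Mmp12, a macrophage elastase, by 2.23, Lgals3, which encodes galectin-3, by 2.20, and Ctsk, a lysosomal protease, by 1.52. The 12 genes with the largest gaps also hold Chchd4 (1.96), Dnaic1 (1.96), Lrfn3 (1.56) and Kcnk1 (1.5), which are on none of the lists used here. The rest of the 12 include a probe without a symbol, ranked 2 at 4.37, another at 1.30, and Ifi27l2a (1.36). The 29 other genes of the scar-associated and lipid-associated state had a median gap of 0.10, and 2 of them were higher by over 1. The 12 Kupffer cell markers had a median gap of 0.02 on that array, the 7 monocyte markers -0.01, the 10 pan-macrophage and leukocyte genes 0.27, and the 11986 genes -0.01. The part of other cells in the difference of this array was not tested. Without it, 8 of the 9 genes still rose in CCl4 liver.

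FSP1 ablated and CCl4 liver were compared to see which of these genes differ when FSP1-expressing cells are ablated under the same treatment. Lpl fell, Fabp5 rose, and the other 7 genes did not pass the test. Over all genes, 8.05% fell and 6.13% rose. The median difference was -0.26 over the 9 genes and 0.01 over all genes. Lpl was also the only one of the 9 with no overlap between the arrays of both groups, which held for 6.3% of all genes in that direction.

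Lpl read 10.73, 9.58, 9.84 and 10.02 on FSP1 ablated arrays 1 to 4. All 4 lay at least 1 unit below the lowest CCl4 array at 11.76, and all 4 above the highest healthy array at 9.41. Lpl fell 4.37-fold, a difference of -2.13 (SE 0.26, adjusted p = 7.90e-05, limma). With either part of the CCl4 arrays as the control, 1 to 3 or 4 to 6, the difference was -2.01 (adjusted p = 0.000566, limma) or -2.24 (adjusted p = 0.000291, limma). Leaving out each array in turn gave -2.36 to -1.97, and all 10 of these fits passed.

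Fabp5 read 7.78, 8.59, 6.72 and 8.40 on the FSP1 ablated arrays, and the CCl4 arrays spanned 6.78 to 7.26. Arrays 1, 2 and 4 lay above every CCl4 array, and array 3 lay below all of them. The difference was 0.92 (SE 0.26, adjusted p = 0.0266, limma), and without FSP1 ablated array 3 it was 1.30 (adjusted p = 0.000134, limma). The call was lost without FSP1 ablated array 2 (adjusted p = 0.107), array 4 (adjusted p = 0.0968) or CCl4 array 2 (adjusted p = 0.0513), all in limma, and with no filter on dim probes (adjusted p = 0.0519). It was lost as well when only both groups were fitted (adjusted p = 0.0914) or when CCl4 arrays 1 to 3 or 4 to 6 served alone as control (adjusted p = 0.0742 and 0.0506, limma).

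FSP1 ablated array 3 was also the lowest of its group for both tetraspanins. Cd63 read 11.53, 12.36, 9.81 and 11.14 on the 4 arrays and differed from CCl4 liver by -0.54 (95% interval -1.34 to 0.26). Cd9 read 10.44, 10.53, 9.17 and 10.13 and differed by 0.08 (95% interval -0.44 to 0.61). Without array 3 the Cd63 difference shrank to -0.08, and neither gene passed.

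Gpnmb read 10.84, 10.23, 9.91 and 10.10 on the FSP1 ablated arrays, and differed by -1.11 (95% interval -2.94 to 0.72, adjusted p = 0.45, limma). This interval rests on a spread shared by all 4 groups of the fit. For Gpnmb the SD was 2.55 in healthy, 1.23 in CCl4 and 0.40 in FSP1 ablated liver. Trem2 read 8.65, 7.99, 7.86 and 8.01, and differed by -0.60 (95% interval -1.38 to 0.17, adjusted p = 0.312, limma). All 8 array readings of Gpnmb and Trem2 lay within the range of the CCl4 arrays. Tyrobp averaged 7.42 ± 0.27 (SD, n = 4), Ms4a7 7.14 ± 0.30 and Lyz1 12.39 ± 0.25 in this group, against 7.47 ± 0.28, 7.33 ± 0.26 and 12.65 ± 0.48 in CCl4 liver (n = 6). Their differences were -0.05, -0.19 and -0.26, with the interval of each including 0.

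The CCl4 arrays themselves differed in 4 of these 9 genes, between arrays 1 to 3 and arrays 4 to 6, a division taken up because earlier results of these data were known. Arrays 1 to 3, which are Xist-positive, averaged 10.38 for Gpnmb and 8.08 for Trem2, while arrays 4 to 6 averaged 12.38 and 9.38, with no overlap for either gene. The tetraspanins ran the opposite way, with Cd63 at 12.11 on arrays 1 to 3 and 11.40 on arrays 4 to 6, and Cd9 at 10.31 and 9.66, also with no overlap. Over all genes, 15.1% were higher and 17% lower on each of arrays 1 to 3 than on each of arrays 4 to 6, so that the 2 of 9 in either direction lie near the share over all genes. The other 5 genes overlapped: Lpl, at 12.06 and 12.28, Fabp5, at 6.98 and 6.93, Tyrobp, at 7.41 and 7.54, Ms4a7, at 7.20 and 7.46, and Lyz1, at 12.38 and 12.92. The probe of Alb, the gene of albumin, parts the arrays along the same line: it read 6.24 to 6.40 on arrays 1 to 3 and 8.62 to 9.30 on arrays 4 to 6. That probe read 6.05 to 6.58 on the healthy and FSP1 ablated arrays and 8.79 to 9.23 on the aSMA ablated ones. In healthy liver it lay far below the mean of the 10 hepatocyte markers, at 12.11 to 12.21. The probe is therefore used only as a signal that parts the arrays, and not as a measure of albumin RNA. The 10 hepatocyte markers averaged 11.65 to 11.83 on CCl4 arrays 1 to 3 and 12.16 to 12.22 on arrays 4 to 6. Alb is among these 10 markers, so that their level is not separate from the Alb reading. The labels give no basis for this division, and the part of other cells in it was not tested.

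Against CCl4 arrays 1 to 3, the FSP1 ablated arrays differed by -0.11 for Gpnmb and 0.04 for Trem2 (adjusted p = 0.959, limma). Against CCl4 arrays 4 to 6, Trem2 differed by -1.25 (adjusted p = 0.0116, limma) and Gpnmb by -2.11 (adjusted p = 0.133, limma). The result for Trem2 after FSP1 ablation thus changes with the CCl4 arrays it is set against, and that for Lpl does not.

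**Figure D4:**
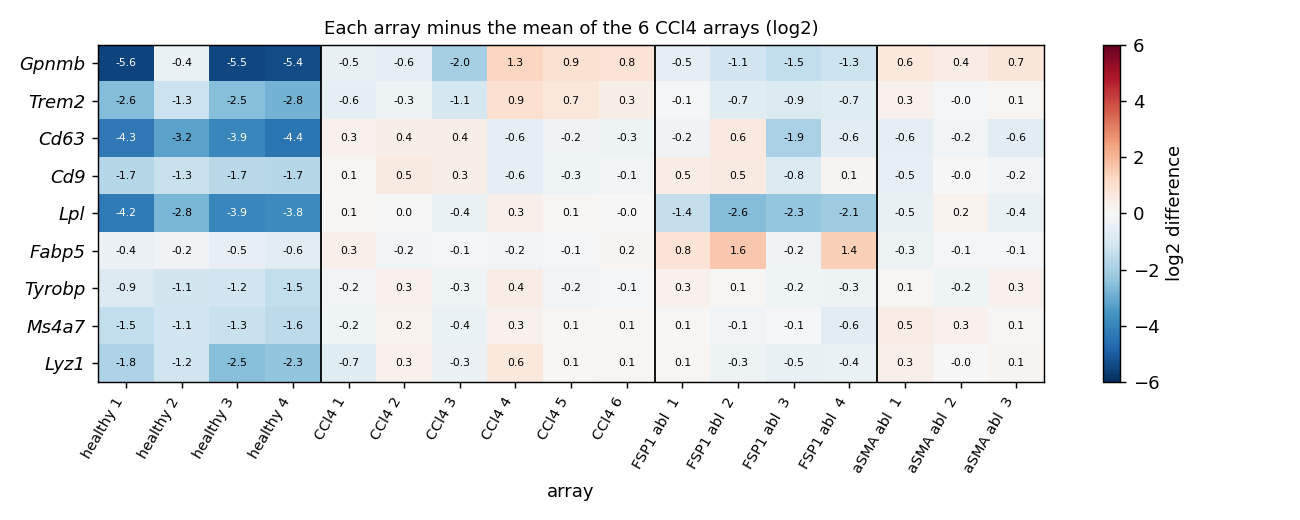
Log2 difference (colour and number) of each array (columns, by group) from the mean of the 6 CCl4 arrays, for the 9 measured genes (rows). Gpnmb and Trem2 are below that mean on CCl4 arrays 1 to 3 and above it on arrays 4 to 6, and Lpl is below it on all 4 FSP1 ablated arrays.

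aSMA ablated liver was compared with CCl4 liver in the same way. None of the 9 genes passed in either direction, with limma in the fit of all groups and under every alternative run, and none had an unadjusted p under 0.05. Over all genes, 0.00834% were called in this comparison, a single gene. That count over all genes varied with the fit: it was 1775 with array weights, 1260 against CCl4 arrays 1 to 3, 233 with the Y-linked block and 199 without CCl4 array 4. The group has 3 arrays, and the intervals are wide for the genes that vary most. The fit shares its estimate of the spread over all 4 groups. For Gpnmb the SD was 2.55 in healthy, 1.23 in CCl4 and 0.14 in aSMA ablated liver. Gpnmb read 12.01, 11.83 and 12.10 and differed by 0.60 (95% interval -1.41 to 2.61). Trem2 read 8.99, 8.68 and 8.84 and differed by 0.11 (95% interval -0.74 to 0.95). Both genes lay within the range of the CCl4 arrays on all 3 arrays. Against CCl4 arrays 1 to 3 alone, Gpnmb differed by 1.60 (adjusted p = 0.36, limma) and Trem2 by 0.76 (adjusted p = 0.166, limma). Against arrays 4 to 6 the differences were -0.40 (adjusted p = 0.982, limma) and -0.54 (adjusted p = 0.756, limma).

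Lpl read 11.70, 12.37 and 11.75 in aSMA ablated liver and differed by -0.23 (95% interval -0.84 to 0.39), an interval that excludes a fall of the size found after FSP1 ablation. Fabp5 read 6.66, 6.85 and 6.83 and differed by -0.17 (95% interval -0.77 to 0.43). Cd63 and Cd9 differed by -0.46 and -0.23, Tyrobp and Lyz1 by 0.02 and 0.15, and Ms4a7 by 0.27, with an adjusted p of 0.579 (limma).

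The ablated groups were also set against each other. Lpl was lower in FSP1 ablated than in aSMA ablated liver by 1.90, a difference of -1.90 (SE 0.31, adjusted p = 0.00485, limma), which passed in all 7 fits that left out an array, and the other 8 genes did not pass. Over all genes 3% were lower and 2.12% higher. Fabp5 was higher by 1.09 with an adjusted p of 0.052 (limma), and without FSP1 ablated array 3 by 1.47 (adjusted p = 0.000674, limma). For 4 of the 9 genes, Gpnmb, Trem2, Lpl and Ms4a7, every FSP1 ablated array was lower than every aSMA ablated array, against 12.8% of all genes. The differences of Gpnmb, Trem2 and Ms4a7 were -1.71, -0.71 and -0.46, with adjusted p of 0.361, 0.366 and 0.144 (limma). With only both ablated groups fitted, the SE of Gpnmb was 0.21 against 1.02, and it passed (adjusted p = 0.0146, limma). The Alb probe parts these groups too, at 6.2 to 6.5 in FSP1 ablated and 8.8 to 9.2 in aSMA ablated liver. Its division and the ablation cannot be told apart within this comparison.

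Against healthy liver, all 9 genes rose in FSP1 ablated liver and 8 rose in aSMA ablated liver, Fabp5 being the exception there. Over all genes, 9.75% and 11.9% rose. These comparisons use the same healthy arrays as that of CCl4 liver, and FSP1 ablated liver and aSMA ablated liver each share no level of Y-linked signal with healthy liver, so sex-linked signal and group cannot be told apart within them. In FSP1 ablated liver Lpl was 1.56 above healthy liver (SE 0.29, adjusted p = 0.00222, limma) and Fabp5 1.35 above it (SE 0.28, adjusted p = 0.00494, limma). Gpnmb was 3.09 higher (adjusted p = 0.0329, limma), and 4.36 higher without healthy array 2. That call held in only 2 of 8 fits that left out an array, the largest adjusted p being 0.101 without healthy array 3, and was lost with no filter on dim probes (adjusted p = 0.0615, limma) and with only both groups fitted (adjusted p = 0.089, limma). When Y-linked signal was a block, the fit rested on the gap between CCl4 arrays 5 and 6 and CCl4 arrays 1 to 4. Only Cd63 at 3.03 and Ms4a7 at 1.28 passed in it (adjusted p = 0.0357 and 0.0299, limma). Over all genes, 1.69% were called in either direction in that fit, against 19.3% without the block. The 7 genes that did not pass in that fit differed by 4.39 for Gpnmb, 2.47 for Trem2, 1.87 for Lyz1, 1.59 for Lpl, 1.42 for Fabp5, 1.39 for Cd9 and 0.91 for Tyrobp, with adjusted p from 0.0524 for Trem2 to 0.151 for Gpnmb (limma). The SE of Lpl was 0.47 there, against 0.29 without the block.

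In aSMA ablated liver the rises over healthy liver were 4.80 for Gpnmb, 2.43 for Trem2, 3.48 for Cd63, 1.38 for Cd9, 3.46 for Lpl, 1.17 for Tyrobp, 1.65 for Ms4a7 and 2.13 for Lyz1. Each was past the threshold, with adjusted p between 6.28e-06 and 0.00357 (limma). With the Y-linked block, 7 of these 8 still passed. That fit again rests on the gap between CCl4 arrays 5 and 6 and CCl4 arrays 1 to 4. Over all genes, 11.3% were called in it in either direction, against 24.2% without the block. Cd9, at 1.08, did not (adjusted p = 0.13, limma). The order of the groups by mean Lpl level was healthy (8.48), FSP1 ablated (10.04), aSMA ablated (11.94) and CCl4 (12.17), and only the last pair did not differ beyond its spread. For Fabp5 it was healthy (6.53), aSMA ablated (6.78), CCl4 (6.95) and FSP1 ablated (7.87), of which only the FSP1 ablated group passed against the one next to it.

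Other genes of the scar-associated and lipid-associated state were read from a list of 39 genes, of which 29 were measured. In CCl4 liver 16 rose, 3 fell and 10 did not pass, with a median of 0.46. The shares over all genes were 17.6% that rose and 18.8% that fell. Lgals1, which encodes galectin-1, rose by 3.34 (adjusted p = 8.72e-08), Lgals3 by 3.25 (adjusted p = 6.15e-05), Anxa5, a phospholipid-binding annexin, by 1.80 (adjusted p = 2.71e-07) and Mmp12 by 2.45 (adjusted p = 0.000904), all in limma. Lipa, the lysosomal acid lipase, rose by 1.09, and Apoe fell by 0.36, a difference of -0.36. Without healthy array 2, 14 rose and 3 fell, where 30.6% of all genes were called in either direction.

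After FSP1 ablation 6 of the 29 fell and 1 rose, with a median of -0.15, against 8.05% and 6.13% of all genes. The differences were -2.53 for Lgals1, -1.90 for Mmp12, -1.83 for Lgals3 and -1.43 for Anxa5. Mmp12 read 7.65, 6.78, 6.36 and 6.55 on the FSP1 ablated arrays and 8.78, 8.31, 7.40, 9.62, 9.07 and 9.26 on the CCl4 arrays. The lowest CCl4 array, 3, lay below the highest FSP1 ablated array, so that the groups overlapped. The count depended on the CCl4 arrays used: 2 fell and 2 rose against arrays 1 to 3, and 10 fell and 1 rose against arrays 4 to 6. In these fits 14.3% and 18.1% of all genes were called in either direction. In the aSMA ablated group none of the 29 passed.

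Of 14 measured partners of TREM2 and TYROBP in signalling and ligand binding, 5 rose and 1 fell in CCl4 liver, with a median of 0.27. That is 6 of 14 called, near the 36.4% called over all genes. Inpp5d, a phosphatase that acts downstream of such receptors, rose by 0.65 and Btk, a kinase, by 0.64. After FSP1 ablation only Clu, which encodes clusterin, passed, at -0.56 (adjusted p = 0.00363, limma). Of 17 other tetraspanins, 7 rose and 2 fell in CCl4 liver, against 17.6% and 18.8% of all genes. Cd53 and Tspan8 led with 0.97 and 1.0. In FSP1 ablated liver 4 of the 17 fell, Tspan6 by 0.56, Tspan8 by 0.82, Tspan17 by 0.78 and Cd151 by 0.41, and none rose. The shares over all genes were 8.05% that fell and 6.13% that rose.

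Of 16 other lipases and lipase partners, 4 rose and 6 fell in CCl4 liver, against 17.6% and 18.8% of all genes. Apoc2, the cofactor that LPL needs, rose by 1.36 (adjusted p = 0.00139, limma). Its difference after FSP1 ablation was -1.13 (adjusted p = 0.0119, limma), with 10.34, 10.13, 9.46 and 10.51 on the FSP1 ablated arrays against a CCl4 range of 10.34 to 11.54. Apoa5, another apolipoprotein that acts on LPL, was 1.06 higher, and Mgll, which splits monoglycerides, 0.63 higher. Thus 2 of the 16 rose and 1 fell after FSP1 ablation, against 6.13% and 8.05% of all genes. The counts of the list were equal against CCl4 arrays 1 to 3, but against arrays 4 to 6 none rose and 2 fell. Among 3 measured members each of the Ms4a and the fatty acid binding protein families, only Ms4a6d changed, rising by 2.06 in CCl4 liver (adjusted p = 3.63e-05, limma), with a difference of -0.03 after FSP1 ablation.

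**Figure D5:**
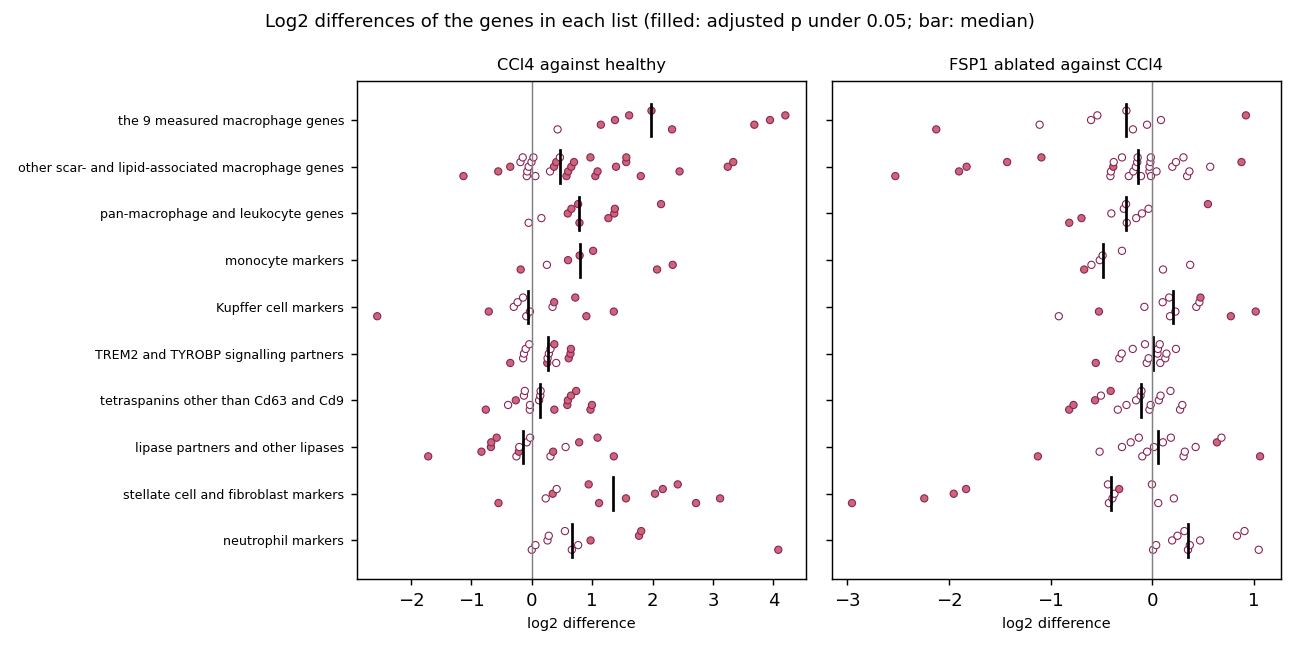
Log2 differences (x axis) of the genes of 10 lists (y axis) for CCl4 against healthy and FSP1 ablated against CCl4; points are genes, filled at an adjusted p under 0.05, and bars are list medians. The 9 macrophage genes have the largest median in CCl4 liver of the lists drawn, 1.98. All lists were chosen with earlier results of these data known, so that this order is no test. After FSP1 ablation 5 of 12 stellate cell and fibroblast markers fell, against 8.05% of all genes.

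Markers of the cells that could carry these genes moved as follows, and their part in the results above was not tested. For scale, 17.6% of all genes rose and 18.8% fell in CCl4 liver. After FSP1 ablation 6.13% of all genes rose and 8.05% fell. Of 10 pan-macrophage and leukocyte genes, 8 rose in CCl4 liver, with Coro1a at 1.38, Laptm5 at 1.37 and Cd52 at 1.27, and their mean level ranged from 7.22 to 7.55 in healthy samples and from 7.97 to 8.55 in CCl4 samples. After FSP1 ablation Coro1a and Cd52 fell by 0.70 and 0.82, Mertk rose by 0.55, and the level ranged from 7.83 to 8.11. Of 7 monocyte markers, 5 rose and 1 fell in CCl4 liver, among them Plac8 by 2.07 and Cd14 by 2.33, and without healthy array 2 the count was 4 and 0. After FSP1 ablation Plac8 alone of the 7 passed, falling by 0.67, and 2 fell against CCl4 arrays 4 to 6. Their mean level was 6.92 to 7.20 in FSP1 ablated and 7.10 to 7.62 in CCl4 samples.

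Of 12 Kupffer cell markers, those of the resident macrophages of liver, 4 rose and 2 fell in CCl4 liver, against 17.6% and 18.8% of all genes. C1qc, a complement subunit, rose by 1.36, and C6 fell by 2.56. Their mean level was 8.36 to 8.78 on the healthy arrays, 8.38 to 8.68 on the CCl4 arrays, 8.62 to 8.82 on the FSP1 ablated arrays and 8.42 to 8.73 on the aSMA ablated arrays. After FSP1 ablation Cd163 rose by 1.02, Slc40a1, the iron exporter, by 0.77 and Clec4f by 0.47, while Folr2 fell by 0.53. Against CCl4 arrays 1 to 3 the count was 2 that rose and 0 that fell, and against arrays 4 to 6 it was 5 and 2. In these fits 14.3% and 18.1% of all genes were called, and 14.2% with all CCl4 arrays. Of 12 stellate cell and fibroblast markers, 9 rose and 1 fell in CCl4 liver, and 5 fell after FSP1 ablation, with Col3a1 at -1.95 and Timp1 at -1.83. Of 11 neutrophil markers, 4 rose and none fell in CCl4 liver, where 36.4% of all genes were called in either direction. None of the 11 passed after FSP1 ablation in limma, where 2 had an unadjusted p under 0.05. Against CCl4 arrays 4 to 6, 3 of them rose, and against arrays 1 to 3 none passed.

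Likeness was ranked only among genes with a symbol that are not in the macrophage set. Of these, the genes whose pattern over the 17 arrays was most like that of Trem2 were Rgs10 (Pearson's r = 0.96), Lipa (0.96), Ccdc3 (0.95), Arl11 (0.95) and Lgals3 (0.94). For Gpnmb they were Ctsk (0.94), Lgals3 (0.94), Mmp12 (0.90), Ccdc3 (0.90) and Lipa (0.90). The arrays share the group differences and healthy array 2, so that these coefficients describe the same contrasts and carry no test.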

How the data were processed

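Liver RNA of 17 samples in 4 groups was measured on Illumina arrays; per the labels' protocols, total RNA was extracted with Trizol and biotinylated cRNA made with an Ambion kit. The deposited intensity values, 1 per probe and array, were read with GenomeStudio, per the submitters' processing notes, while the sources used here do not give its version, background correction or normalization. A second table of 34 columns was not used, because its column names match no label.

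From these intensities the background was taken as each array's mode with the SD of the values below it, followed by normexp with offset 50, quantile normalization and log2, as the design's fallback for a table without detection p. Probes above the 95th percentile of background on at least 3 arrays were kept (16130 of 25697), and of several probes of a gene the one with the highest mean was used, which gave 11986 genes, 955 of them without a symbol. Of all probes, 23978 have 1 symbol, 0 several and 1719 none. Groups were compared in 1 limma fit (lmFit and eBayes, limma 3.58.1, R 4.3.3) to all 17 arrays, two-sided, with Benjamini-Hochberg adjustment over all 11986 genes and a threshold of 0.05. The fit was tested on simulated data. Alternatives changed the background, scaling, filter, probes, variances, arrays and blocks. Replicate numbers from the titles were not used to pair the arrays in the main fit. Over 21 same-numbered pairs the correlations of deviations ran from -0.30 to 0.38, with a median of 0.04. Over 85 pairs with different numbers they ran from -0.40 to 0.31, with a median of 0.02.

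The macrophage genes, the other lists and the parts of the CCl4 arrays were chosen with earlier results of these data known. Named genes are the 10 genes, up to 4 of each list with the smallest p in a comparison, and S100a4, Acta2, Xist and Alb. Also named are the 5 genes most like Trem2 and the 5 most like Gpnmb, among genes with a symbol outside the set. Eif2s3y was added to show Y-linked signal.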

Additional observations from a re-analysis of the deposited data

Results flagged for a closer look

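Gpnmb on healthy array 2, at 11.00, stood apart from the other 3 healthy arrays at 5.82 to 6.0 by more than Dixon's test allows in a group of 4. Cd9 on the same array, at 8.64 against 8.26 to 8.31 on the others, did so as well. Of 27 groups of values tested for a sample far from the others, these 2 were picked out, and chance picks about 1 in 20.

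The effect of ablation on Lpl differed between both ablations: FSP1 ablated minus aSMA ablated liver was -1.90 (adjusted p = 0.00485, limma), and all 4 FSP1 ablated arrays lay below all 3 aSMA ablated arrays. Since both effects are taken against the same CCl4 arrays, this is the direct comparison of the ablated groups. The Alb probe parts these groups as well, and its division and the ablation cannot be told apart within this comparison.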

How the results depend on the processing

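Across the alternatives, 8 genes rose in CCl4 against healthy liver in all fits but those on the deposited scale, with each array centred on its median or with only both groups fitted, where Fabp5 passed too, at 1.05, 0.87 and 0.43. Those scalings moved the median of all genes by 0.62 and 0.44 and raised the calls over all genes from 4368 to 8572 and 7246. The count of called genes after FSP1 ablation, 2, was 1 with no filter on dim probes, with the replicate block, with only both groups fitted and with CCl4 arrays 1 to 3 as control, and 1 to 2 over the fits that left out an array; it was the call of Fabp5 that was lost (with the replicate block its adjusted p was 0.0753, limma). Between the ablated groups the count, 1, was 2 with offset 16, the stricter filter, trend and robust variances, array weights, the Y-linked block and only both groups fitted (where Gpnmb was added, at -1.71 with an adjusted p of 0.0146, limma, and otherwise Fabp5), and 1 to 2 over the fits that left out an array. For FSP1 ablated against healthy liver the count of 9 became 2 with the Y-linked block, where the calls over all genes fell from 2317 to 202. The count was 8 with no filter on dim probes and with only both groups fitted, and 8 to 9 over the fits that left out an array. The replicate block changed no other call of the macrophage genes. The causes were not tested.

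Signs changed only in differences that did not pass. For FSP1 ablated against CCl4 liver these were Trem2 (0.044), Cd9 (-0.24), Tyrobp (0.011) and Lyz1 (0.011) with CCl4 arrays 1 to 3, Cd9 with the replicate or Y-linked block (-0.017 in both), Tyrobp with array weights (0.092), and with an array left out Cd9 (range -0.071 to 0.38) and Tyrobp (-0.16 to 0.032). For aSMA ablated against CCl4 liver they were Gpnmb (-0.40), Trem2 (-0.54), Cd9 (0.098), Tyrobp (-0.041) and Lyz1 (-0.11) with CCl4 arrays 4 to 6, Tyrobp with the replicate (-0.058) or Y-linked block (-0.035), and with an array left out Trem2 (-0.10 to 0.30) and Tyrobp (-0.090 to 0.16). Between the ablated groups they were Cd63 with array weights (0.16) or the replicate block (0.053), and with an array left out Cd63 (-0.46 to 0.38) and Tyrobp (-0.21 to 0.037). List counts with other CCl4 arrays or without healthy array 2 were chosen after seeing the data. Signal near background limits Ms4a7 and Gpnmb in healthy liver.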
